A study of Mus musculus with 6 samples.

Results

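The genes of the mitochondrial respiratory chain were examined in neural progenitor cells (NPCs) of *Armc5* KO and wild-type (WT) mouse embryos. Members were all rows that name a subunit or assembly factor symbol starting with Nduf, Uqcr, Cox4, Cox5, Cox6, Cox7, Cox8 or Atp5 in the nuclear genome, or with mt-Nd, mt-Co, mt-Cytb or mt-Atp in the mitochondrial genome, without pseudogene symbols. This gave 98 loci of the 53060 genes or merged loci in the series, and these 98 loci name 106 member genes. Of them, 93 are nuclear and 5 are mitochondrial, and the 5 mitochondrial loci hold all 13 mitochondrial protein-coding genes. By complex, the nuclear loci are 7 core subunits, 32 accessory subunits and 8 assembly factors of complex I, 8 members of complex III, 21 of complex IV and 17 of complex V. *Ndufa4* was counted with complex IV, where its protein is now placed, and its relative *Ndufa4l2* was counted beside it.

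The KO group was 3 libraries from Armc5(-/-) cells and the WT group was 3 libraries from cells with intact *Armc5*. The deletion was present in the whole embryo. All 6 libraries came from ganglionic eminences of E13.5 embryos, grown as free-floating spheres of cells in medium with 20 ng/ml of epidermal growth factor, and used at passage 2. The labels call the cells neural stem cells and number the libraries 1 to 3 in each group, and do not say how many embryos they came from, so p-values measure the spread between these libraries. The study calls them biological replicates. The strain is labelled 129 sv X CD1, whereas the study describes mice of a CD1 x C57BL/6 F1 background. Neurospheres are cultures of mixed stem, progenitor and differentiating cells, so they model the progenitors of the brain only in part. The RNA was total RNA without rRNA, and both ends of each fragment were read from directional libraries.

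The respiratory chain sits in the inner mitochondrial membrane. Complex I takes electrons from NADH, complex II from succinate, complex III passes them to cytochrome c, and complex IV (cytochrome c oxidase) hands them to oxygen. Complexes I, III and IV pump protons, and complex V (ATP synthase) uses the return flow to make ATP. All complexes but complex II mix subunits from both genomes: nuclear mRNAs are made by RNA polymerase II in the nucleus, while the mitochondrial mRNAs are made as long transcripts from both DNA strands by a separate polymerase, POLRMT, and cut at the tRNAs. ARMC5 is the substrate-recognition part of a ubiquitin ligase for RNA polymerase II, so a contrast of nuclear with mitochondrial members sets genes that this polymerase reads beside genes that it does not.

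The mitochondrial protein-coding genes abut or overlap on the DNA, and many share a locus in the deposited table. This limits what a count at a locus can separate. In the deposited table *mt-Co2* (MT, 7013 to 7696) and *mt-Nd3* (MT, 9459 to 9806) have loci of their own. *mt-Nd4* and *mt-Nd4l* share a locus (MT, 9877 to 11544). One plus-strand locus from 2751 to 15288 holds the other 8 plus-strand protein-coding genes, from *mt-Nd1* to *mt-Cytb*, with 4 tRNAs. *mt-Nd6*, the only protein-coding gene of the minus strand, shares a locus from 5260 to 14070 with 2 tRNAs. The junctions below (GENCODE M21 on GRCm38, plus strand, 5′ to 3′) are shown because shared bases cannot be assigned to one gene. Bases that belong to both genes are in capitals. The overlap is 7 bases for *mt-Nd4l* with *mt-Nd4* (shown from 10152 to 10188), 43 bases for *mt-Atp8* with *mt-Atp6* (7912 to 7984) and 1 base for *mt-Atp6* with *mt-Co3* (8592 to 8622). These overlaps on the plus strand lie within shared loci. Loci on opposite strands were counted apart although they share bases. *mt-Nd5* (11742 to 13565, plus strand) overlaps with *mt-Nd6* (13552 to 14070, minus strand), and this junction is not shown. The span of the *mt-Nd6* locus also covers *mt-Co2*, *mt-Nd3* and the *mt-Nd4* locus.
mt-Nd4l end and mt-Nd4 start: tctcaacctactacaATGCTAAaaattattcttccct
mt-Atp8 end and mt-Atp6 start: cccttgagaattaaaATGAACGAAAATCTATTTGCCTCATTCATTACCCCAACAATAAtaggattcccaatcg
mt-Atp6 end and mt-Co3 start: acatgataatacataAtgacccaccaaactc

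Promoters from RefSeq (GRCm38.p6) were matched by symbol for 72 of the 93 nuclear members, and *Cox4i1* is not among them. In the window of 280 bases, 250 before and 30 after the start, the letters CCGGAAG, bound by ETS factors such as GABP, were found on either strand in 16 of the 72 promoters (22.2%), against 8.70% of all 27025 promoters of that length. The letters GCGC, any 2 bases and GCGC again, the centre of the NRF1 motif, were in 17 of 72 (23.6%), against 6.05% of all. AAGATGGC, bound by YY1, was in 3 of 72 (4.17%, against 2.38%), and GGGCGG, bound by Sp1, in 31 of 72 (43.1%, against 34.9%). A match is a description of letters and not of binding. The promoters of 3 complex IV members are shown because they hold CCGGAAG or its reverse complement, which is in capitals. Matches of the other letters are not marked. Other complex IV members, such as *Cox5a*, *Cox5b*, *Cox7a2* and *Cox7b*, had no CCGGAAG match in the window. Shown are *Cox6b1*, the nuclear complex IV member with the highest WT level per length (chr7:30626085-30626364, minus strand), *Cox6a1*, the common isoform of subunit 6a (chr5:115348929-115349208, minus strand), and *Cox8a*, the member that differed most between libraries (chr19:7217587-7217866, minus strand). The first base of the match is at -28 in *Cox6b1*, at -16 in *Cox6a1* and at -5 in *Cox8a*, counted from the start.
Cox6b1 promoter: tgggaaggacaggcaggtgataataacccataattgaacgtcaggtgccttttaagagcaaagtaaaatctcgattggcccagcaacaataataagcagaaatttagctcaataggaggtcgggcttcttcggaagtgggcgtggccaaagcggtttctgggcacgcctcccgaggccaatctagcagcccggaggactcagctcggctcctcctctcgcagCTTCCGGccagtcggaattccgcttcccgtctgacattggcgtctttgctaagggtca
Cox6a1 promoter: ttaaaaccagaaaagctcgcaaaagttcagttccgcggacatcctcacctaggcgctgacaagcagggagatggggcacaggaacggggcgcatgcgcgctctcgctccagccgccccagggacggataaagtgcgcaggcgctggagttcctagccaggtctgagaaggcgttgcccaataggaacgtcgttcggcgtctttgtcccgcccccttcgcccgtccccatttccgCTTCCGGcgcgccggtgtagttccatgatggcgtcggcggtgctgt
Cox8a promoter: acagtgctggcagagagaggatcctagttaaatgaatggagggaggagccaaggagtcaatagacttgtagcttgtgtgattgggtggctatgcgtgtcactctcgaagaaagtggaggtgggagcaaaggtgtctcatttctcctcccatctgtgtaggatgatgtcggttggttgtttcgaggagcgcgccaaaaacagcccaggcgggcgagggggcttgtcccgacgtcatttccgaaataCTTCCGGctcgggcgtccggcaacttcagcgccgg

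The depth at named loci was 52995791 to 85170379 counts per library, and was lowest in KO NPC 3. *Armc5* was at 1.01, 1.63 and 0.729 CPM (counts scaled to the library size) in KO NPCs 1, 2 and 3, against 31.1, 29.5 and 26.2 CPM in WT NPCs 1, 2 and 3, as labelled, with a log2 fold change of -4.68 (adjusted p = 0.0864, edgeR quasi-likelihood test). KO NPC 3 stood apart from the other libraries, and WT NPC 3 shared part of this for neuron markers and *Gfap*. Of the 19073 genes tested, 1117 were over 3 times higher in KO NPC 3 than in the next highest library. For each other library this count was 1 to 44. *Dcx* was at 287 CPM in KO NPC 3 and 231 CPM in WT NPC 3, against 17.3 to 64.0 CPM in the others. The list of 12 neuron markers, without *Map2*, which was highest in WT NPC 1, summed to 494 and 410 CPM, against 59.3 to 142 CPM. KO NPC 3 was highest for 5 of the 12. *Gfap*, an astrocyte marker, was at 276 and 47.9 CPM, against 0.157 to 1.54 CPM. The summed level of 10 oligodendrocyte lineage markers was 3902 CPM in KO NPC 3 and 424 to 1912 CPM in the other 5 libraries. That of 8 astrocyte markers was 2914 against 944 to 1515 CPM. Not all genes of these lists followed: KO NPC 3 was highest for 7 of the 10 and for 5 of the 8. It was lowest for *Cspg4* (56.7 CPM, against 80.5 to 237 CPM), and *Slc1a2* was at 271 CPM, within the range of the others (219 to 520 CPM). *Pdgfrb*, a mural marker, was at 58.4 against 0.190 to 1.59 CPM. Of the endothelial markers *Kdr* was at 14.8 CPM in KO NPC 3 and 2.19 to 4.23 CPM in the others, while *Cdh5* was at 0, and *Cldn5* (0.0170 CPM) and *Pecam1* (0.559 CPM) lay within the range of the other libraries. The 16 neural progenitor markers summed to 4255 CPM in KO NPC 3 and to 5209 to 5885 CPM in the others, but the list went both ways: KO NPC 3 was lowest for 6 of the 16, such as *Nes*, *Fabp7* and *Vim*, and highest for 5, such as *Sox2*. The 7 microglia and macrophage markers summed to 4.10 to 4.77 CPM, the 6 red blood cell markers (4 matched) to at most 0.233 CPM, and *Hbb-y* was at 0 in all libraries. Results are therefore given with and without KO NPC 3, and the part of other cell types in them was not tested. In bulk RNA, fewer cells of a type and less RNA per cell cannot be told apart.

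No member passed the test between KO and WT NPCs. Of the 98 members, 93 passed the filter on low counts, 88 nuclear and all 5 mitochondrial. Of these, 0 had an adjusted p under 0.05 in edgeR's quasi-likelihood test, as did 0% of all 19073 genes tested, and 0 in edgeR's likelihood ratio test, which called 0.0891% of all genes tested, or in DESeq2, which called 0.184%. At an unadjusted p under 0.05 there was 1 member, *Cox4i1*, or 1.08% of the members tested, against 1.61% of all genes tested. The 5 members that did not pass the filter were *Ndufa11b*, *Ndufs6b*, *Cox7b2*, *Cox8b* and *Cox8c*.

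The nuclear members shared a low level in KO NPC 3. Their summed level was 7328, 6267 and 3726 CPM in KO NPCs 1, 2 and 3, against 7597, 6284 and 6631 CPM in WT NPCs 1, 2 and 3. KO NPC 1 thus lay within the WT range, KO NPC 2 just under it, and KO NPC 3 lay well below all others. KO NPC 3 was the lowest library for 69 of the 88 nuclear members tested (78.4%), against 36.8% of all genes tested, and lay under 0.7 of the median of the other 5 libraries for 63 of the 88 (71.6%), against 29.2% of all genes. The ratio of KO NPC 3 to that median had a median of 0.594 over the nuclear members, with a range of 0.255 to 2.14, and of 0.990 over all genes tested. Of the nuclear members, 11 were higher and 77 lower in KO by the fitted log2 fold change (KO over WT), whose median was -0.22, against -0.01 over all genes tested. Without KO NPC 3 the median was -0.01 and 41 of the 88 were above 0. Matched by replicate number, the median log2 ratio of KO to WT over the nuclear members was -0.02 for number 1, -0.03 for number 2 and -0.72 for number 3.

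**Figure D1:**
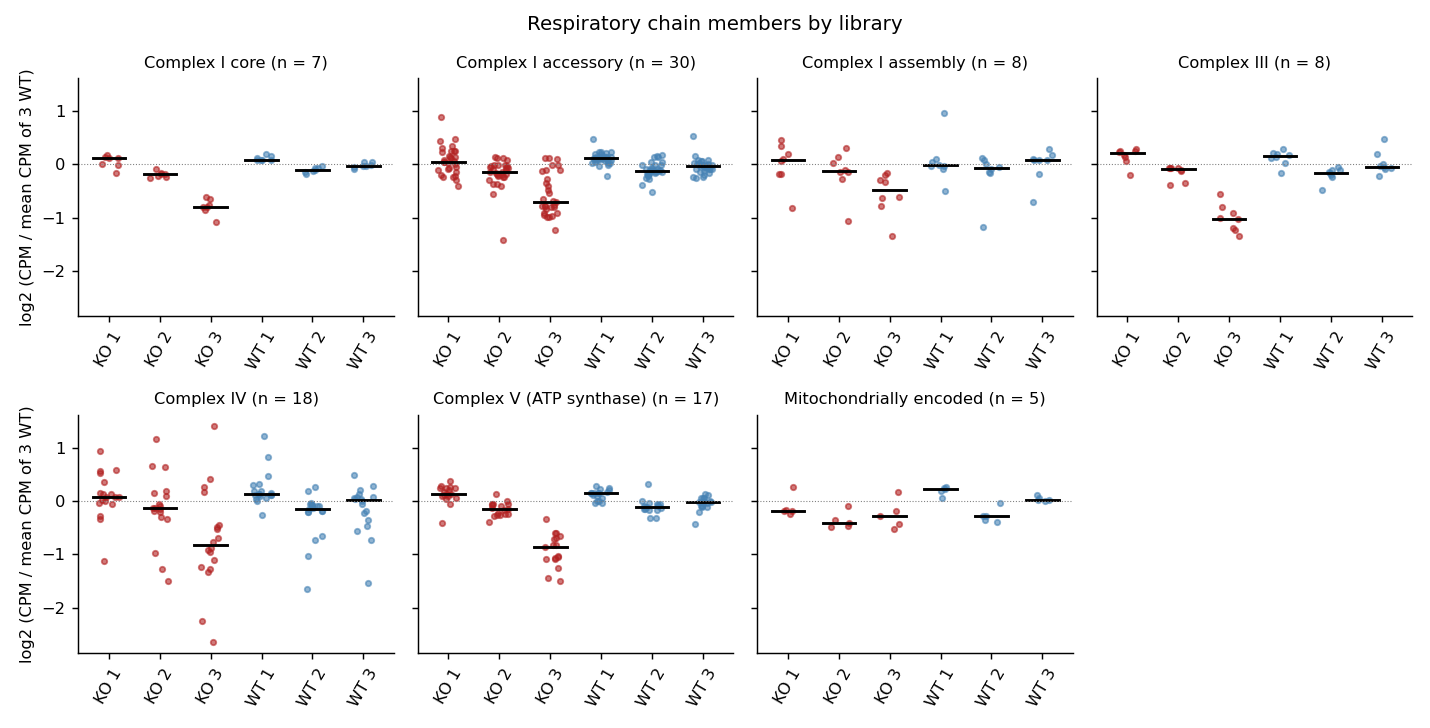
Level of each tested member in each library, as log2 of its CPM over its mean CPM in the 3 WT libraries, with 1 point per member, a black line at the median, KO libraries in red and WT libraries in blue. In KO NPC 3 the medians of the nuclear classes lie below 0 in every panel, while the median of the 5 mitochondrial loci in KO NPC 3 lies between those in KO NPCs 1 and 2.

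All nuclear classes were low in KO NPC 3. The median ratio of KO NPC 3 to the median of the other 5 libraries was 0.508 for complex III, 0.544 for complex V, 0.568 for complex IV, 0.593 for complex I core subunits, 0.622 for complex I accessory subunits and 0.686 for complex I assembly factors. Within a library, the ratio of summed counts of complex I subunits to those of complex V does not depend on scaling. It was 0.746, 0.840 and 1.11 in KO NPCs 1, 2 and 3, against 0.826, 0.846 and 0.819 in WT NPCs 1, 2 and 3, and 0.613, 0.633 and 0.883 against 0.639, 0.654 and 0.665 in loci that hold no other gene. KO NPC 3 was thus above the other libraries, and KO NPCs 1 and 2 were below or level with them. The ratio of complex III to complex V varied little, with 0.232, 0.233 and 0.247 in KO NPCs against 0.232, 0.222 and 0.245 in WT NPCs. That of complex IV to complex V was 0.299, 0.317 and 0.384 in KO NPCs against 0.358, 0.300 and 0.305 in WT NPCs, and the groups overlapped.

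**Figure D2:**
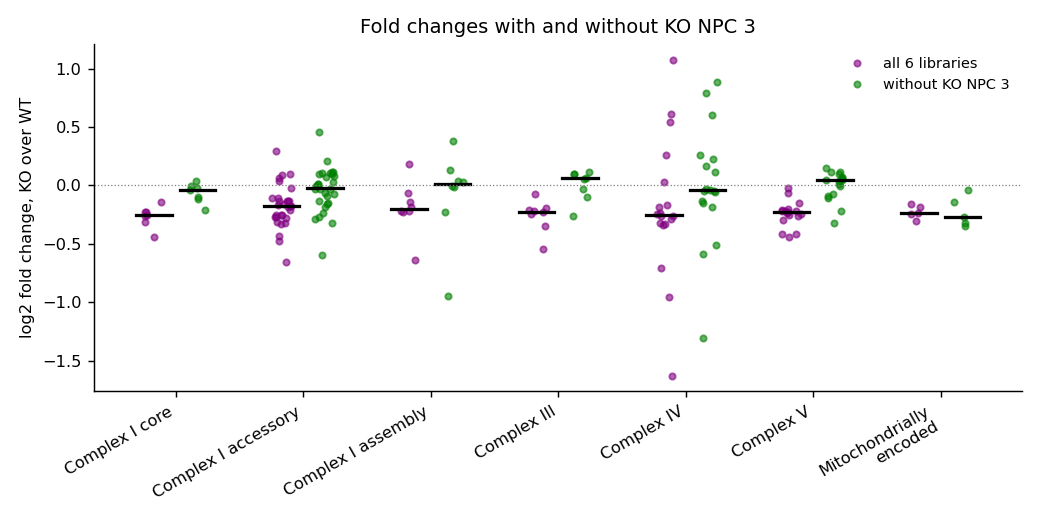
Log2 fold change, KO over WT, of each tested member by class, fitted with all 6 libraries (purple) and without KO NPC 3 (green), with a black line at the median. The medians of the nuclear classes lie between -0.26 and -0.17 with all libraries and between -0.04 and 0.06 without KO NPC 3, whereas that of the mitochondrial loci stays below 0.

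Complex I core subunits carry the flavin, the iron-sulfur clusters and the quinone site. All 7 were lowest in KO NPC 3. *Ndufs7*, an iron-sulfur subunit and the core subunit with the highest level per length, was at 76.6, 62.5 and 41.3 CPM in KO NPCs, against 78.9, 63.8 and 69.0 CPM in WT NPCs, so KO NPCs 1 and 2 were close to the WT libraries of the same number. *Ndufv2*, an iron-sulfur subunit of the NADH-oxidizing arm, had the lowest log2 fold change of the 7 (-0.44, standard error 0.26, -0.21 without KO NPC 3). It was at 58.6, 55.4 and 31.0 CPM in KO NPCs, against 69.0, 62.7 and 65.4 CPM in WT NPCs, without overlap. *Ndufv1*, the subunit that binds NADH, had the highest (-0.15, standard error 0.23, 0.04 without KO NPC 3).

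Complex I accessory subunits surround the core and are needed for its assembly and stability. Of 30 tested, 5 were above 0 and 25 below 0 in log2 fold change (median -0.17, and -0.02 without KO NPC 3). *Ndufc2*, the most abundant per length, was at 170.1, 137 and 81.1 CPM in KO NPCs, against 184, 138 and 147 CPM in WT NPCs. *Ndufs6*, required for a late step of assembly, had the highest fold change (0.29, standard error 0.34), set by KO NPC 1, with 16.7, 8.22 and 8.41 CPM in KO NPCs against 9.66, 9.98 and 7.56 CPM in WT NPCs. It was -0.13 without KO NPC 1. *Ndufa13*, also known as GRIM-19, had the lowest (-0.66, standard error 0.34, but -1.07 without KO NPC 1 and -0.35 without KO NPC 2). Its locus also holds *Yjefn3*, and it was at 42.2, 16.5 and 25.5 CPM in KO NPCs against 49.1, 40.4 and 43.3 CPM in WT NPCs, so KO NPC 1 overlapped with WT.

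The assembly factors help to put complex I together and are not part of the finished enzyme. Of 8 tested, 1 was above 0 and 7 below 0 (median -0.20, and 0.01 without KO NPC 3). *Ndufaf8*, which supports the modification of *Ndufs7* by *Ndufaf5*, was the one above 0 (0.18, standard error 0.27, 0.38 without KO NPC 3, but -0.07 with libraries scaled to *Rn7sk*). It was at 10.2, 9.18 and 5.87 CPM in KO NPCs, against 7.25, 7.12 and 7.85 CPM in WT NPCs, so KO NPCs 1 and 2 were above and KO NPC 3 was below the WT libraries. *Ndufaf1*, an assembly factor of the membrane arm, was the most abundant per length, at 10.2, 9.82 and 6.36 CPM in KO NPCs, against 10.3, 10.2 and 8.55 CPM in WT NPCs. *Ndufaf4* had the lowest fold change of the class, and a single WT library set it: it was at 11.8, 9.99 and 18.6 CPM in KO NPCs, against 40.7, 9.23 and 12.8 CPM in WT NPCs. The fold change of *Ndufaf4* on the log2 scale, -0.64 (standard error 0.60), turned to 0.30 without WT NPC 1.

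Complex III members were alike in that all 8 were lowest in KO NPC 3. *Uqcrfs1*, which encodes the Rieske iron-sulfur protein, was at 151, 119.6 and 64.1 CPM in KO NPCs, against 149.9, 115 and 122 CPM in WT NPCs. KO NPCs 1 and 2 lay at or above the WT library of the same number. The median log2 fold change of the 8 was -0.22, and 0.06 without KO NPC 3. *Uqcrh*, the hinge protein, was highest (-0.07, standard error 0.24, 0.12 without KO NPC 3). *Uqcrq*, a small structural subunit, was lowest (-0.55, standard error 0.38, -0.27 without KO NPC 3 and -0.23 without WT NPC 3), with 73.8 CPM in WT NPC 3 and 20.8 to 47.4 CPM in the other 5 libraries, and its locus spans 30.9 times the length of the annotated gene.

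*Cox4i1* stood against the pattern of the other nuclear members. It encodes the common isoform of subunit 4 of cytochrome c oxidase, which is needed for the assembly of the complex and through which ATP inhibits the enzyme, and lies on chromosome 8 from 120668222 to 120674207 on the plus strand. It was at 101, 81.4 and 59.2 CPM in KO NPCs 1, 2 and 3, against 54.1, 50.1 and 54.1 CPM in WT NPCs 1, 2 and 3, with means of 80.7 ± 21.2 and 52.7 ± 2.32 CPM (SD, n = 3 each). All KO libraries lay above all WT libraries. On the log2 scale *Cox4i1* was higher by 0.61 (standard error 0.22, adjusted p = 0.983 in edgeR's quasi-likelihood test), and by 0.79 without KO NPC 3. With libraries scaled to *Rn7sk*, an RNA polymerase III product, it was higher by 0.38, where the median over all genes tested was -0.26. Over leaving out each library it ranged from 0.42, without KO NPC 1, to 0.79. Without KO NPC 3, *Cox4i1* passed an adjusted p under 0.05 in edgeR's likelihood ratio test (adjusted p = 0.0357), which called 0.346% of the genes tested, and in DESeq2 (adjusted p = 0.000329), which called 0.458%, but not in the quasi-likelihood test (adjusted p = 0.716). Over all alternatives its adjusted p lay between 0.000329 and 1.00. Leaving out KO NPC 3 with these tests was chosen after the data were seen, and *Cox4i1* was the only member that they called.

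The ratio of *Cox4i1* counts to those of the other 20 nuclear complex IV members within a library was 0.119, 0.110 and 0.130 in KO NPCs, against 0.0512, 0.0680 and 0.0685 in WT NPCs. To the summed counts of all other 92 nuclear members it was 0.0140, 0.0132 and 0.0161 in KO NPCs, against 0.00717, 0.00803 and 0.00822 in WT NPCs. *Cox4i1* in KO NPC 3 was thus as high, relative to the other members, as in KO NPCs 1 and 2. These ratios were formed after the *Cox4i1* values were seen and carry no test. The *Emc8* locus on the opposite strand shares 352 bases with the *Cox4i1* locus. It was at 52.2, 52.2 and 56.1 CPM in KO NPCs, against 52.0, 35.5 and 61.4 CPM in WT NPCs, and the groups overlapped. The sources used here do not state if strand was used in counting. If reads of these 2 genes were kept apart where they overlap was not tested. At another pair of loci on opposite strands the counts differed: the *mt-Nd6* locus spans *mt-Co2* and had 4879 to 11936 counts, against 129753 to 197416 for *mt-Co2*.

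**Figure D3:**
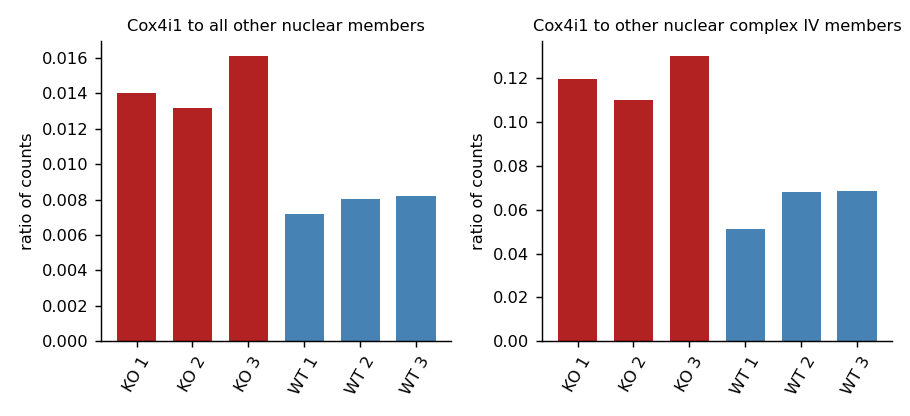
Ratio of *Cox4i1* counts to the summed counts of all other nuclear members (left) and of the other nuclear complex IV members (right) in each library, with KO in red and WT in blue. On the left the KO bars lie between 0.0132 and 0.0161 and the WT bars between 0.00717 and 0.00822.

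In the complex IV isoform pairs the ubiquitous isoform carried most counts, and nearly all but for *Cox6b1* and *Cox6b2*. In WT NPC 1 *Cox6b2* had 1024 counts and *Cox6b1* 10612. *Cox4i2*, the isoform known from lung and induced by low oxygen, was at 0.205, 0.220 and 0.186 CPM in KO NPCs, against 0.174, 0.0838 and 0.160 CPM in WT NPCs, with 6 to 17 counts per library. *Cox6a1* was at 36.8, 31.9 and 19.1 CPM in KO NPCs, against 40.0, 34.4 and 31.0 CPM in WT NPCs, while the heart and muscle isoform *Cox6a2* stayed at or under 0.277 CPM in every library. *Cox6a2* ends 30955 bases before *Armc5* on chromosome 7, and its 5 to 19 counts per library leave wide counting error.

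*Cox6b1*, the common isoform of a subunit that joins the monomers of the enzyme, was at 169.9, 142 and 99.0 CPM in KO NPCs, against 168, 151 and 164 CPM in WT NPCs, in a locus 24.9 times as long as the annotated gene. Its testis isoform *Cox6b2* was at 9.70, 6.00 and 2.47 CPM in KO NPCs, against 16.2, 11.1 and 7.92 CPM in WT NPCs. Each KO library lay below the WT library of the same number, although the groups overlapped, with -0.95 as the log2 difference (standard error 0.53, adjusted p = 0.983 in edgeR's quasi-likelihood test). It was -0.58 without KO NPC 3. Blocked on the replicate number it was -1.10 (adjusted p = 0.968 in edgeR's quasi-likelihood test). *Cox6b2* was at 0.255 of the median of the other libraries in KO NPC 3, the lowest ratio of any member tested.

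*Cox7a2*, the common isoform of subunit 7a, was at 77.5, 57.3 and 32.7 CPM in KO NPCs, against 76.0, 61.5 and 73.2 CPM in WT NPCs, and the heart and muscle isoform *Cox7a1* stayed at or under 0.855 CPM. *Cox7a2l*, a related protein that joins complexes III and IV into supercomplexes, was not low in KO NPC 3. It was at 77.2, 67.0 and 72.3 CPM in KO NPCs, against 64.9, 72.3 and 43.5 CPM in WT NPCs, with a log2 fold change of 0.26 (standard error 0.22) that was 0.07 without WT NPC 3 and 0.11 with libraries scaled to *Rn7sk*. *Cox7b* was at 100.3, 98.0 and 47.0 CPM in KO NPCs, against 104, 79.6 and 91.0 CPM in WT NPCs, and the testis isoform *Cox7b2* had no count in any library.

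*Cox8a*, the common isoform of the smallest subunit, was the member with the lowest log2 fold change (-1.63, standard error 0.88), and WT NPC 1 set it. It was at 51.4, 39.8 and 17.9 CPM in KO NPCs, against 263, 35.9 and 38.6 CPM in WT NPCs. Without WT NPC 1 the log2 fold change was -0.02. Only 12 of the 19073 genes tested were over 3 times higher in WT NPC 1 than in the next highest library, and *Cox8a* was the one member among them. *Cox8b*, the heart and muscle isoform, had 56 counts in WT NPC 1 and 0 to 11 in the other libraries, and *Cox8c*, the testis isoform, had at most 2 counts.

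*Ndufa4*, an exchangeable subunit of complex IV, was at 38.1, 35.8 and 20.3 CPM in KO NPCs, against 38.4, 34.4 and 42.1 CPM in WT NPCs. Its relative *Ndufa4l2*, a target of the hypoxia factor HIF-1, was at 0.229, 0.343 and 0.407 CPM in KO NPCs, against 0.190, 0.140 and 0.131 CPM in WT NPCs, without overlap, and had the highest log2 fold change of the members (1.08, standard error 0.46, 0.89 without KO NPC 3, adjusted p = 0.983 in the quasi-likelihood test). These levels rest on 9 to 25 counts per library. *Cox4i1*, *Cox4i2* and *Ndufa4l2* were the 3 members whose KO libraries all lay above all WT libraries, 3.23% of the members tested against 2.74% of all genes tested.

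**Figure D4:**
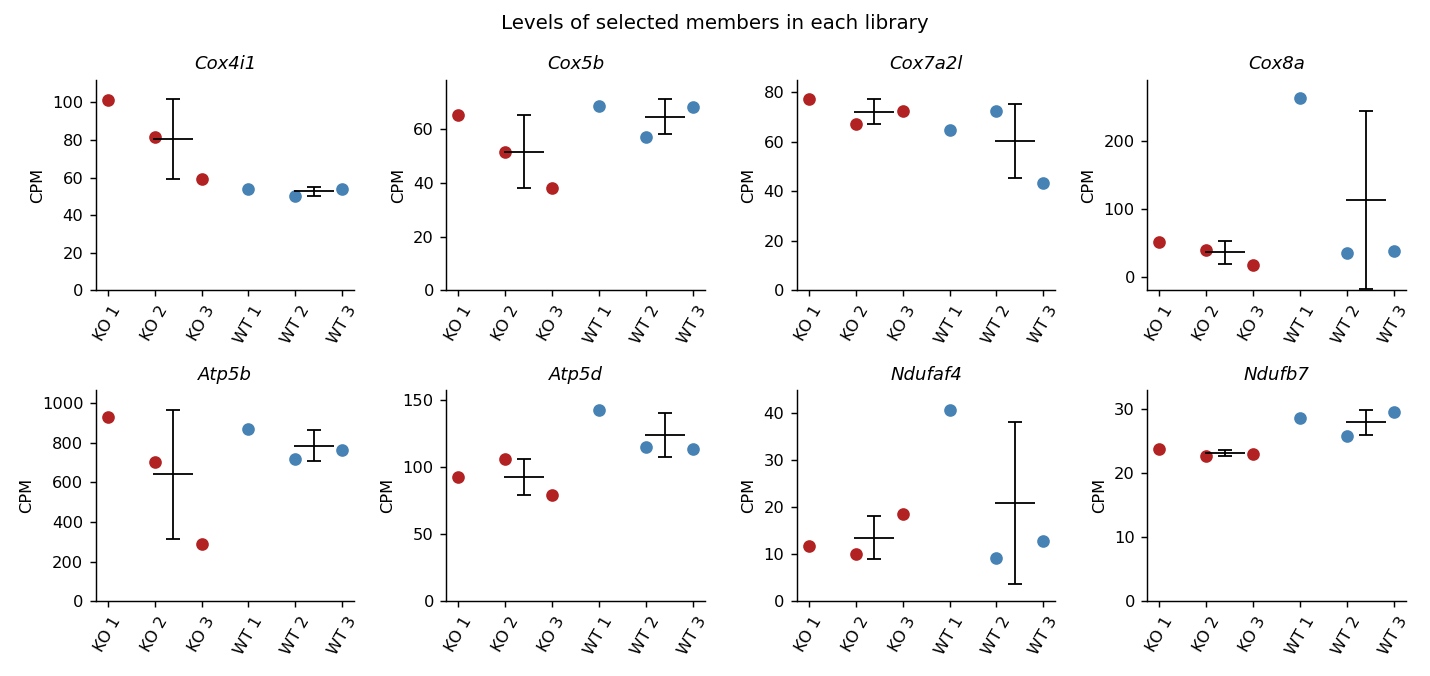
CPM of 8 members in each library (points, KO in red and WT in blue), with the mean of each group and its SD (black, n = 3 each). *Cox4i1* has all 3 KO libraries above all WT libraries, *Cox5b* is lowest in KO NPC 3 at 37.9 CPM and *Cox7a2l* is not, *Cox8a* and *Ndufaf4* have 1 high WT library, *Atp5b* is lowest in KO NPC 3, and *Atp5d* and *Ndufb7* have all KO libraries below all WT libraries.

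Over all loci, complex V took more of the nuclear counts than complex I subunits in every library but KO NPC 3. In loci that hold no other gene it took more in every library, and the ratio of complex I subunits to complex V was 0.883 in KO NPC 3. Complex V summed to 3180.4, 2589.8 and 1336 CPM in KO NPCs, against 3102, 2622 and 2763 CPM in WT NPCs. All 17 members had a log2 fold change below 0 with all libraries (median -0.23), and 11 of 17 were above 0 without KO NPC 3 (median 0.04). *Atp5b*, the catalytic beta subunit and the nuclear member with the most counts, was at 933, 702 and 288 CPM in KO NPCs, against 872, 721 and 766 CPM in WT NPCs. KO NPC 3 was at 0.375 of the median of the other libraries. *Atp5a1*, the alpha subunit, was also lowest in KO NPC 3, with 686, 579.9 and 289 CPM in KO NPCs, against 665, 573 and 606 CPM in WT NPCs.

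Subunit c, which forms the rotor ring, is encoded by *Atp5g1*, *Atp5g2* and *Atp5g3*, whose mature proteins are the same. *Atp5g1* was at 82.6, 63.5 and 27.1 CPM in KO NPCs, against 85.6, 62.1 and 83.5 CPM in WT NPCs, and *Atp5g2* at 71.1, 57.8 and 34.1 CPM in KO NPCs, against 64.2, 60.6 and 56.1 CPM in WT NPCs. *Atp5g3*, in a locus with *Atf2*, was at 291, 239.7 and 162 CPM in KO NPCs, against 298, 240.2 and 260.3 CPM in WT NPCs. In all 3 genes KO NPC 3 was lowest and KO NPCs 1 and 2 were close to WT levels. *Atp5j2* was the highest member of complex V (-0.02, standard error 0.24, 0.11 without KO NPC 3) and *Atp5mpl*, a small subunit of the membrane part, the lowest (-0.44, standard error 0.26, -0.22 without KO NPC 3).

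*Atp5d*, the delta subunit of the central stalk, was lower in all KO libraries than in any WT library. It was at 93.0, 106 and 79.2 CPM in KO NPCs, against 143, 115 and 114 CPM in WT NPCs (log2 fold change -0.42, standard error 0.18, adjusted p = 0.983 in the quasi-likelihood test, -0.32 without KO NPC 3). *Ndufb7*, an accessory subunit of complex I, was at 23.8, 22.8 and 23.1 CPM in KO NPCs, against 28.6, 25.8 and 29.6 CPM in WT NPCs (log2 fold change -0.27, standard error 0.15, and -0.27 without KO NPC 3). The loci of these genes span 27.1 and 61.8 times the length of the annotated gene, so reads from between genes may count with them. In all, 8 members had all KO libraries below all WT libraries, 8.60% of the members tested against 3.28% of all genes tested. They were *Atp5d*, *Ndufb5*, *Ndufb7*, *Ndufb11*, *Ndufs5*, *Ndufv2*, *Ndufaf7* and *mt-Nd3*, and *Ndufb7* and *Ndufaf7* were the ones among them for which KO NPC 3 was not the lowest library.

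The mitochondrial members were lowest in KO NPC 3 for 2 of 5 loci, *mt-Nd3* and *mt-Nd6*, and the 3 loci with the most counts were not. The locus from *mt-Nd1* to *mt-Cytb*, which held 81.9% to 84.3% of the counts of mitochondrial members, was at 30900.4, 27276 and 30740.0 CPM in KO NPCs, against 41006, 28884 and 35384 CPM in WT NPCs. WT NPC 1 was highest and KO NPC 2 lowest, and the groups overlapped. *mt-Co2*, the copper-bearing subunit of complex IV that receives electrons from cytochrome c, was at 2373, 1886 and 2199 CPM in KO NPCs, against 3126, 2176 and 2677 CPM in WT NPCs. On the log2 scale *mt-Co2* was at -0.31 (standard error 0.21), and -0.32 without KO NPC 3.

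*mt-Nd3*, a core subunit of complex I, was at 331, 356 and 280.1 CPM in KO NPCs, against 392, 367 and 379 CPM in WT NPCs, without overlap (log2 fold change -0.23, standard error 0.15, adjusted p = 0.983 in the quasi-likelihood test). The *mt-Nd4* and *mt-Nd4l* locus, for 2 core subunits of the membrane arm, was higher in KO NPC 3 than in the other KO libraries, with 3223, 2747 and 4251 CPM in KO NPCs, against 4538, 2895 and 3950.3 CPM in WT NPCs. The minus-strand locus of *mt-Nd6* was at 144, 89.6 and 82.7 CPM in KO NPCs, against 137, 93.7 and 129 CPM in WT NPCs. It held 0.220% to 0.389% of the counts of mitochondrial members. Each of the 5 loci had a log2 fold change below 0, from -0.31 to -0.16, and their median was -0.23 (-0.27 without KO NPC 3), but that of *mt-Nd4* was 0.00 without WT NPC 1 or without KO NPC 2, and the median was -0.11 without WT NPC 1.

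Per length, *mt-Co2* reached 3147 CPM per kb in KO NPCs and 3888 CPM per kb in WT NPCs, against 178 and 209 CPM per kb for *Cox6b1*, 149 and 183 CPM per kb for *Atp5b*, and 52.1 and 34.0 CPM per kb for *Cox4i1*, the KO value given before the WT value. *mt-Nd3* was lower than *mt-Co2*, with 927 CPM per kb in KO NPCs and 1089.5 CPM per kb in WT NPCs. These are means over 3 libraries on the locus lengths of the deposited table. Mitochondrial members took 3.60%, 3.17% and 4.18% of all counts in KO NPCs, against 4.71%, 3.36% and 4.28% in WT NPCs. Nuclear members took 0.714%, 0.615% and 0.415% in KO NPCs, against 0.727%, 0.613% and 0.668% in WT NPCs.

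The ratio of mitochondrial to nuclear member counts within a library was 5.05, 5.16 and 10.1 in KO NPCs, against 6.48, 5.48 and 6.41 in WT NPCs. KO NPC 3 had the highest ratio of the 6, and KO NPCs 1 and 2 had the lowest. The means were 6.76 ± 2.87 in KO NPCs and 6.12 ± 0.560 in WT NPCs (SD, n = 3 each), and the difference of the mean log2 ratios, KO minus WT, was 0.07, smaller than the spread between libraries. It was -0.26 without KO NPC 3, and -0.22 without both libraries numbered 3. Within replicate numbers, the log2 ratio of KO to WT was -0.36 for number 1, -0.09 for number 2 and 0.65 for number 3. KO NPC 3 was also highest within complexes: *mt-Co2* over nuclear complex IV members was 2.49, 2.30 and 4.28 in KO NPCs, against 2.82, 2.77 and 3.17 in WT NPCs, and the *mt-Nd3* and *mt-Nd4* loci over nuclear complex I subunits were 1.50, 1.43 and 3.06 in KO NPCs, against 1.93, 1.47 and 1.91 in WT NPCs.

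**Figure D5:**
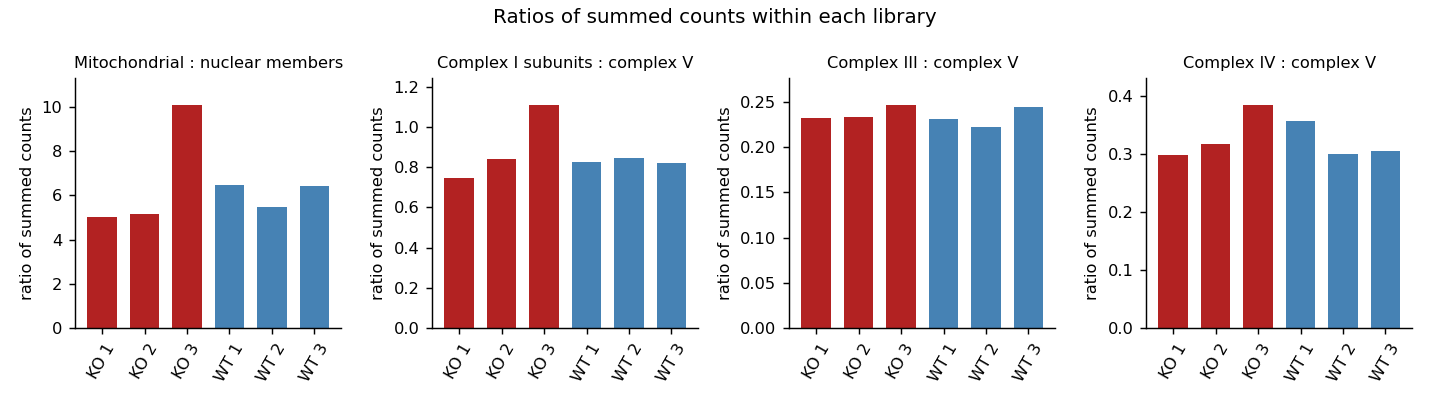
Ratios of summed counts within each library for mitochondrial over nuclear members and for complexes I, III and IV over complex V (nuclear members only), with KO in red and WT in blue. KO NPC 3 reaches 10.1 in the first panel and 1.11 in the second, and the ratio of complex III to complex V lies between 0.222 and 0.247 in all libraries.

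Genes of the pathway outside these families were read from lists set for this purpose. The 8 complex II genes were all below 0 in log2 fold change (median -0.16, and -0.06 without KO NPC 3), with 0 past an adjusted or an unadjusted p under 0.05 in the quasi-likelihood test. *Sdha*, the flavoprotein of complex II, was at 172, 153 and 110.1 CPM in KO NPCs, against 203, 175 and 172 CPM in WT NPCs, and *Sdhb*, its iron-sulfur subunit, at 140.2, 150.0 and 125 CPM in KO NPCs, against 153, 158 and 154 CPM in WT NPCs. *Cycs*, which encodes cytochrome c, was at 177, 147 and 40.2 CPM in KO NPCs, against 189, 131 and 169 CPM in WT NPCs, and *Hccs*, which attaches its heme, at 58.8, 50.0 and 32.2 CPM in KO NPCs, against 58.7, 47.8 and 55.4 CPM in WT NPCs.

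Of 20 genes for complex IV assembly and copper delivery, 7 were above 0 and 13 below 0 (median -0.10), and of 17 assembly factors of complexes I, III and V outside the rule, 4 were above and 13 below 0 (median -0.09), with 0 at an unadjusted p under 0.05 in either list, and 1, *Coa5*, when blocked on the replicate number. KO NPC 3 was the lowest library for 13 of the 20 genes of the first list and 11 of the 17 of the second. Without *Cox18*, whose locus also holds *Ankrd17* and took the most counts, the first list summed to 638, 505 and 419 CPM in KO NPCs, against 615, 551 and 618 CPM in WT NPCs. *Coa5*, a complex IV assembly factor, had the smallest p of that list, with 135, 66.5 and 66.4 CPM in KO NPCs, against 144, 126 and 147 CPM in WT NPCs (log2 fold change -0.64, standard error 0.31, adjusted p = 0.983 in the quasi-likelihood test, and 0.968 with the block). Each KO library was below the WT library of the same number, and *Coa5* was at -1.06 without KO NPC 1 and at -0.46 without KO NPC 3. *Taco1*, which promotes translation of *mt-Co1*, was at -0.34 (standard error 0.22, -0.18 without KO NPC 3). In the other list *Atpaf2*, an ATP synthase assembly factor, was at -0.39 (standard error 0.23, -0.25 without KO NPC 3) and *Bcs1l*, which inserts the Rieske protein into complex III, at -0.31 (standard error 0.19, -0.20 without KO NPC 3).

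Genes that make and process the mitochondrial transcripts gave similar values. For 13 genes of mitochondrial DNA replication and transcription, 3 were above and 10 below 0 (median -0.10, and 0.02 without KO NPC 3), and for 14 of RNA processing and stability 0 were above 0 (median -0.14, and -0.01 without KO NPC 3), again with 0 at an unadjusted p under 0.05. *Tefm*, an elongation factor of POLRMT, was at 5.86, 7.74 and 4.20 CPM in KO NPCs, against 9.09, 6.44 and 8.91 CPM in WT NPCs, and *Polg2*, the accessory subunit of the mitochondrial DNA polymerase, at 10.6, 8.24 and 9.26 CPM in KO NPCs, against 11.8, 10.1 and 10.6 CPM in WT NPCs. *Lrpprc*, which with *Slirp* stabilizes mitochondrial mRNAs, was at 105, 99.7 and 62.8 CPM in KO NPCs, against 110.4, 102 and 106 CPM in WT NPCs. *Slirp* was at 12.9, 13.3 and 12.2 CPM in KO NPCs, against 17.6, 10.8 and 17.9 CPM in WT NPCs.

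Among 11 regulators of respiratory chain genes, 5 were above and 6 below 0 (median -0.05, and 0.05 without KO NPC 3), 0 passed an adjusted p under 0.05 and 1 had an unadjusted p under 0.05 in the quasi-likelihood test. This was *Gabpa*, the DNA-binding ETS subunit of GABP, an activator of nuclear respiratory chain genes. It was at 38.7, 37.2 and 36.8 CPM in KO NPCs, against 53.5, 51.2 and 56.3 CPM in WT NPCs, without overlap and with little spread within groups. The log2 fold change of *Gabpa* was -0.51 (standard error 0.13, adjusted p = 0.983 in the quasi-likelihood test), -0.78 on the *Rn7sk* scale and -0.50 without KO NPC 3. DESeq2 called it with all libraries (adjusted p = 0.0360, 1 of 35 genes called) and without KO NPC 3 (adjusted p = 0.000904), and edgeR's likelihood ratio test did not (adjusted p = 1.00, and 0.902 without KO NPC 3). *Sp1* was at 278, 118 and 145 CPM in KO NPCs, against 111, 115 and 92.4 CPM in WT NPCs, without overlap (log2 fold change 0.76, standard error 0.34, adjusted p = 0.983 in the quasi-likelihood test). Leaving out KO NPC 1 took *Sp1* to 0.31. The 16 tested members whose promoter held CCGGAAG had a median log2 fold change of -0.23, and the 54 with a promoter that did not had -0.22. Without KO NPC 3 these medians were -0.02 and -0.01. A link of *Gabpa* to the levels of the members was not tested.

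Of 12 hypoxia response genes, 11 were tested, with 3 above and 8 below 0 (median -0.26, and -0.07 without KO NPC 3). Their summed level was 874, 701 and 339 CPM in KO NPCs, against 1088, 674 and 628 CPM in WT NPCs, so both libraries numbered 1 were the highest. *Vegfa* and *P4ha1* had the smallest p of the list, at -0.45 (standard error 0.41, -0.20 without KO NPC 3) and -0.30 (standard error 0.31, -0.19 without KO NPC 3). Of the list, 0 had an unadjusted p under 0.05 in the quasi-likelihood test, and 1, *Vegfa*, when blocked on the replicate number. The mitochondrial ribosomal RNAs *mt-Rnr1* and *mt-Rnr2*, which are read from the same strand as most mitochondrial mRNAs, were also highest in the libraries numbered 1. *mt-Rnr1* was at 82.1, 23.8 and 13.1 CPM in KO NPCs, against 149, 16.3 and 18.7 CPM in WT NPCs, and *mt-Rnr2* at 111, 32.3 and 20.3 CPM in KO NPCs, against 229, 22.2 and 24.7 CPM in WT NPCs. As rRNA was depleted before sequencing, depletion and abundance of these RNAs cannot be told apart.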

How the data were processed

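The authors trimmed, aligned and assembled the reads with Trimmomatic, STAR, Picard and StringTie on GRCm38 (versions are not given in the sources used here) and deposited whole-number counts per locus, neither scaled nor filtered. They also deposited log2 CPM values and log2 values relative to *Rn7sk*, which were not used. Counts were summed per reference gene. Loci that name no gene, with 1.31% to 4.89% of counts, were left out. Genes were filtered with filterByExpr (minimum count 10, minimum total 15), normalized by TMM, and the groups were compared with the quasi-likelihood test of edgeR 4.0.16 in R 4.3.3, without a replicate block and with Benjamini-Hochberg adjustment over all 19073 genes tested. CPM values use the TMM factors, which were 1.11 for KO NPC 3 and 0.957 to 1.01 for the other libraries. Alternatives were *Rn7sk* or total-count scaling, scaling without mitochondrial genes, no filter, the likelihood ratio test, DESeq2 1.42.0, the replicate number as a block, and leaving out single libraries, both libraries numbered 3 or shared loci. The tests were tested on simulated data.

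Libraries of the same replicate number shared part of their spread: deviations from group means correlated at r = 0.413, 0.169 and 0.195 across genes for same-numbered libraries, and at most 0.0579 for other pairs. The study describes pairs of biological replicates. Members and gene lists were chosen with earlier results of these data known. Genes named were all mitochondrial members, the most abundant per length and the highest and lowest fold change of each class, the isoform groups, members at an unadjusted p under 0.05, *Armc5*, and up to 2 genes of each further list with the smallest p. *Cox5b*, *Atp5a1*, *Atp5d*, *Ndufb7*, *Emc8* and the other members without overlap were named after their values were seen. Of the nuclear members, 12 share a locus with a gene outside the rule and 25 have a locus over 2 times longer than the annotated gene.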

Additional observations from a re-analysis of the deposited data

How the results depend on the processing

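No member was called under any other normalization, filter, test or design, or with any 1 library left out in the quasi-likelihood test, and 1 member, *Cox4i1*, was called when KO NPC 3 was left out with the likelihood ratio test or with DESeq2, both chosen after seeing the data. With the replicate number as a block in edgeR's quasi-likelihood test, 0 members were called. With the block 2 members had an unadjusted p under 0.05, against 1 without it, and the share of all genes at that p with the block is not given here. The medians with the block were -0.27 for nuclear and -0.23 for mitochondrial members. Leaving out each library in turn, the nuclear median ranged from -0.42 to -0.01, the mitochondrial median from -0.30 to -0.11, and the difference in log2 ratio of mitochondrial to nuclear counts from -0.26, without KO NPC 3, to 0.24. On the *Rn7sk* scale the mitochondrial median was -0.49 and the nuclear -0.46, where all genes moved to -0.26. Of 38 genes named, 8 had the other sign without KO NPC 3, 4 without WT NPC 1 9 without both libraries numbered 3, 8 with the block added to that, and at most 1 under any scaling, test or filter with all libraries. With 3 libraries a group, fold changes within the spread of the libraries could not be shown, and *Cox4i2*, *Cox6a2* and *Ndufa4l2* had under 30 counts per library.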
